A study of Sus scrofa with 12 samples.

Results

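The FGF and IGF growth factor genes considered here are 10 protein-coding genes of the pig, given as a list of ligands, receptors and binding proteins. They are the ligand genes FGF7, FGF9, IGF1 and IGF2, the receptor genes FGFR1, FGFR2, IGF1R and IGF2R, and the binding protein genes IGFBP3 and IGFBP5, out of 19550 protein-coding genes on the assembled chromosomes. All 10 were found by symbol in the RefSeq gene table of Sscrofa11.1. Endometrium, the lining of the uterus, was taken from pregnant pigs on day 15 (3 C/EBP-β ChIP libraries) and day 12 of pregnancy (3 libraries). All were immunoprecipitated with an antibody against C/EBP-β from formaldehyde-fixed tissue, and 6 input samples of the series were left out. Breed and parity are not in the labels. Nothing there ties replicates to separate animals, so a permutation p-value reflects the spread among these libraries, which could be technical. The tissue was whole endometrium, so the cell type behind a summit is not known, and RNA was not measured.

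Fibroblast growth factors act through receptor tyrosine kinases, with FGF7 a ligand that acts on epithelia and FGFR2 the gene of its receptor. IGF1 and IGF2 signal mainly through the receptor encoded by IGF1R. IGF2R encodes the mannose 6-phosphate receptor, which binds IGF2 and removes it, and the IGFBP proteins carry IGFs and limit or prolong their action. Endometrium of early pregnancy secretes IGFs and FGFs into the uterine lumen, where the elongating conceptuses take up growth factors. C/EBP-β, encoded by CEBPB, is a basic leucine zipper transcription factor known from work in mouse and human endometrium for its role in decidualisation.

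The files hold peak summits, each 1 bp wide, with a score from the authors that ranks peaks within a list. On the chromosomes, the lists held 70152, 16529 and 11960 summits in day 15 replicates 1 to 3 and 6557, 33294 and 57728 in day 12 replicates 1 to 3. No read counts are given, so the sequencing depth is unknown. Peak names with a directory path mark a processing set (set A: day 15 replicates 2 and 3 and day 12 replicate 1), and names without one mark set B (day 15 replicate 1 and day 12 replicates 2 and 3). Day 15 replicates 2 and 3 share a sample code in their peak names. At the 10 genes those libraries had 0 summits at identical positions. Libraries of 1 sample need not share exact positions, so this cannot tell whether the samples were separate. C/EBP-β is missing from the sample code in the peak names of day 15 replicate 3 and of day 12 replicate 1, so the calls near gene ends and the differences of IGF1 and IGFBP3 are also given without each of these libraries.

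Near their ends, the growth factor genes had a summit about as often as other genes. The receptor genes FGFR2, IGF1R and IGF2R, but not FGFR1, accounted for most of the calls. Within 5 kb of either end of the gene, 6, 4 and 2 of the 10 genes had a summit in day 15 replicates 1 to 3, against 1, 3 and 7 in day 12 replicates 1 to 3. Among all protein-coding genes the shares were 64.8%, 44.6% and 37.6% on day 15 and 17.2%, 38.4% and 54.1% on day 12. A gene was called bound on a day when at least 2 of its 3 libraries had a summit. FGF9, FGFR2, IGF1R and IGF2R were bound on day 15, 4 of 10 against 46.3% of all genes. FGFR2, IGF1R and IGF2R were bound on day 12, 3 of 10 against 38.1%. IGF2R was the 1 gene of the 10 with a summit in all 6 libraries, against 13.1% of all genes. IGF1, IGF2 and IGFBP3 had none in any library, 3 of 10 against 29.5%. These shares lie near the background. Without day 15 replicate 1 or replicate 2, only FGFR2 and IGF2R were bound on day 15, and without day 12 replicate 2 or replicate 3, only IGF2R on day 12, since both remaining libraries then had to have a summit. The shares of all genes fell as well, to 34.5% and 36.2% on day 15 and to 16.6% and 15.0% on day 12. The calls of both days were as given without day 15 replicate 3 and without day 12 replicate 1. Without day 12 replicate 1, FGFR2 joined IGF2R in being present in all remaining libraries.

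**Figure D1:**
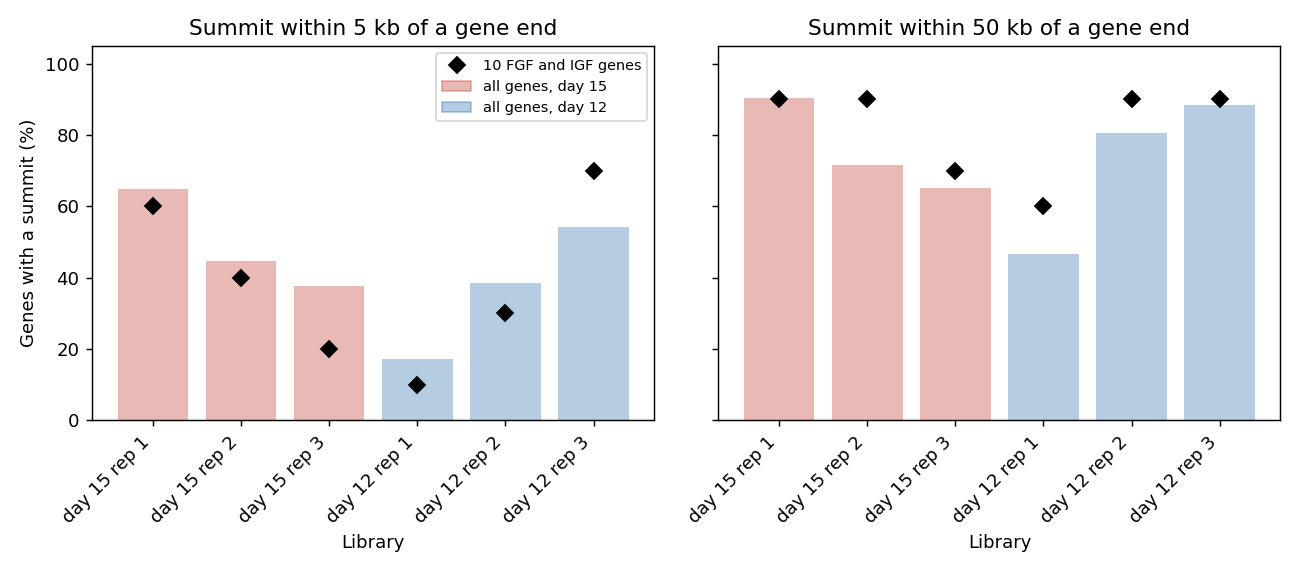
Share of genes with a summit within 5 kb (left) and 50 kb (right) of either gene end, by library; bars are all 19550 protein-coding genes and diamonds the 10 FGF and IGF genes. Within 5 kb the diamonds lie above the bar in day 12 replicate 3 and below it in the other 5 libraries.

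Within 50 kb of an end, 9 of the 10 genes were bound on both days, all but IGF2, against 74.2% of all genes on day 15 and 80.0% on day 12. FGF9, FGFR1, FGFR2, IGF1 and IGF2R had a summit there in all 6 libraries, 5 of 10 against 40.5%. Summed over libraries, the median gene of the 10 had 31 summits within 50 kb, and the median of all genes 16. The 10 genes are longer than most, with a median length of 57.8 kb against 20.7 kb. The windows at the ends of a short gene overlap, so a long gene has more sequence to be counted. Whether length accounts for the higher median was not tested. Of the 280 summits within 50 kb, 127 (45.4%) lay inside the gene, and for 209 (74.6%) no other protein-coding gene had a nearer end.

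**Figure D2:**
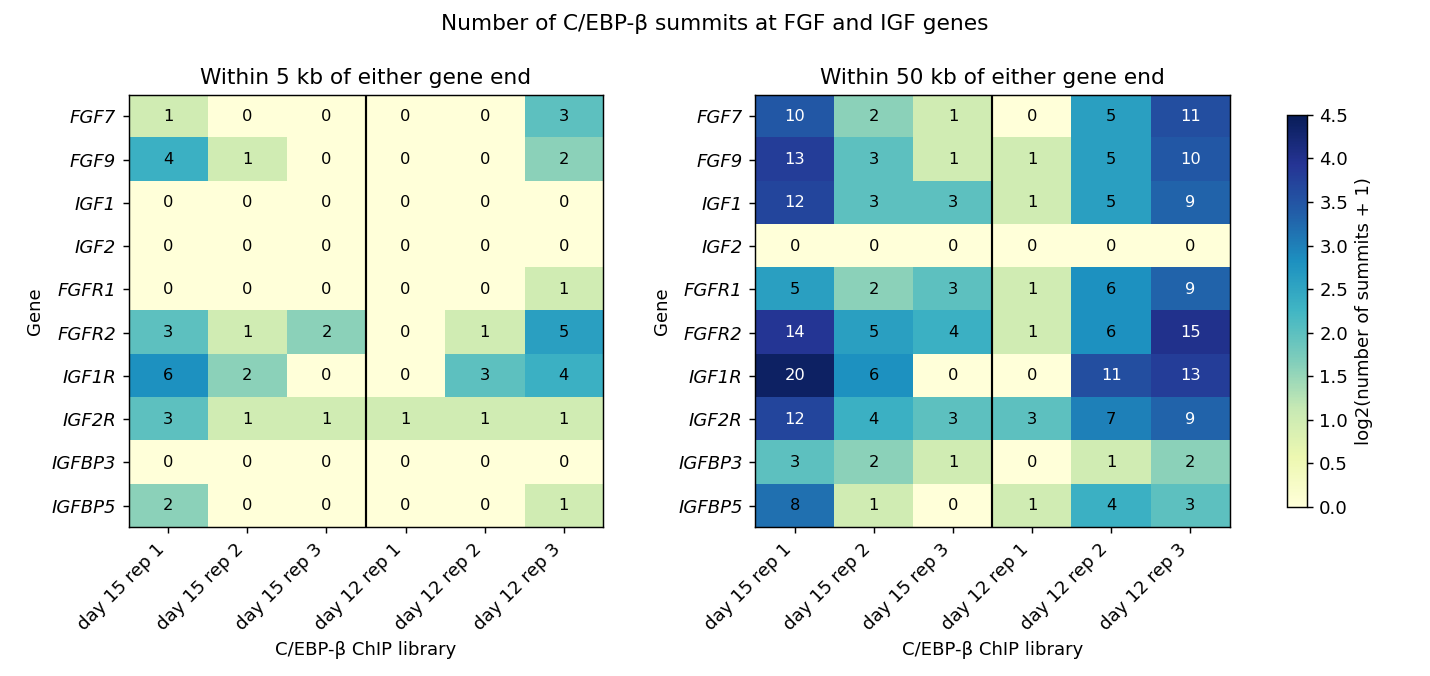
Number of summits within 5 kb (left) and 50 kb (right) of either end of each gene, by library, with day 15 left of the line and day 12 right of it; colour is log2(number + 1). Library day 15 replicate 1 has up to 20 summits at a gene within 50 kb, day 12 replicate 1 at most 3, and IGF2 has 0 throughout.

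Among the ligand genes, IGF1 carried the shared site with the highest mean score percentile at the 10 genes, and it lay deep inside the gene. IGF1 (gene ID 397491) spans chromosome 5, 81762027 to 81909253 (Sscrofa11.1). It had 0 summits within 5 kb of either end in all 6 libraries. Within 50 kb it had 12, 3 and 3 summits in day 15 replicates 1 to 3 and 1, 5 and 9 in day 12 replicates 1 to 3. Summits no more than 200 bp apart, whatever their library, were merged to regions. A region of 50 bp (chromosome 5, 81801740 to 81801789) had a summit in all 6 libraries, 39.7 kb from the end with the lower coordinate. The gene table has no strand or exons, so it cannot be said which end is the start or whether the site is intronic.

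The score of the IGF1 site ranked 17, 287 and 1043 in the lists of day 15 replicates 1 to 3, and 399, 74 and 431 in those of day 12 replicates 1 to 3. As percentiles of the list these were 99.98, 98.27 and 91.2 on day 15 and 93.93, 99.78 and 99.25 on day 12. The days overlapped, and the lowest value came from day 15 replicate 3. In 3 libraries a shared site of IGF2R or FGF9 ranked higher, namely day 15 replicate 3 and day 12 replicates 1 and 3. The series has 2701 regions with a summit in all 6 libraries, and 205 of them (7.59%) had a higher mean percentile than this one. A neighbouring region, 35.3 kb from the same end (chromosome 5, 81797338 to 81797447), was present in 3 of 3 day 15 libraries and in 2 of 3 day 12 libraries. Of 28 summits inside IGF1, 26 lay within 50 kb of the lower end, and 1 lay within 50 kb of the upper end. In day 12 replicate 1, the shortest list, the site was the only summit at the gene.

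**Figure D3:**
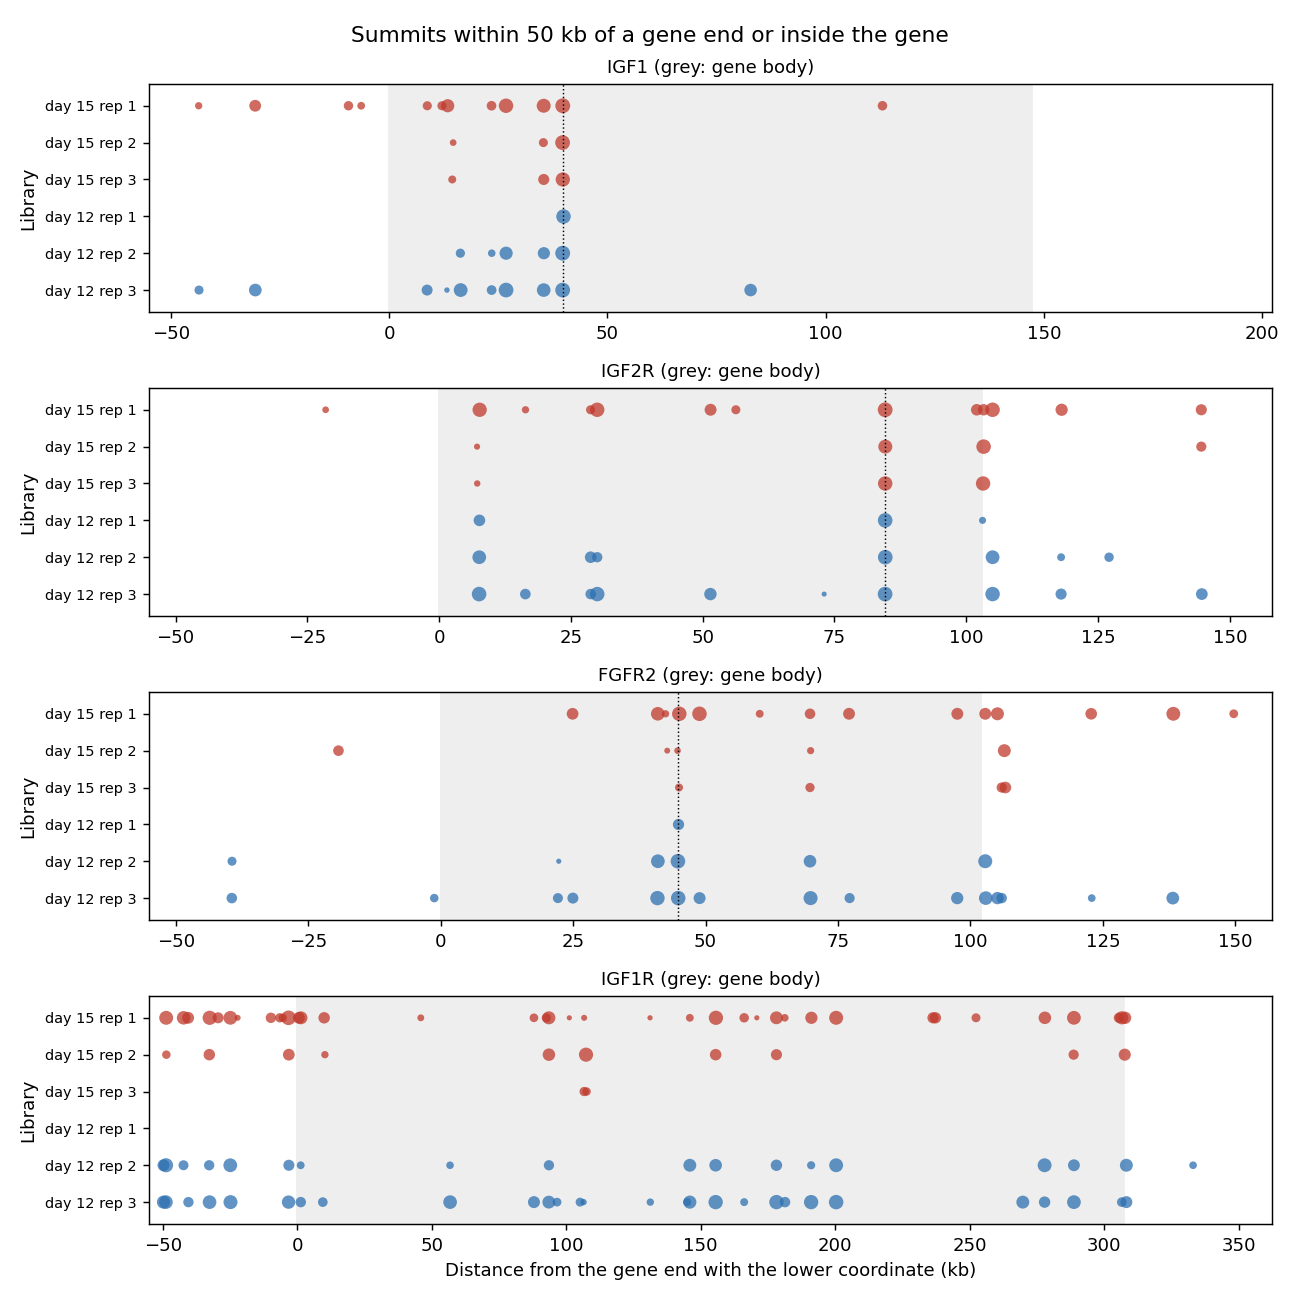
Summits within 50 kb of an end of, or inside, IGF1, IGF2R, FGFR2 and IGF1R, as distance in kb from the gene end with the lower coordinate; 1 row per library, larger points have a higher score percentile within the list, and dotted lines mark regions with a summit in all 6 libraries. IGF1, IGF2R and FGFR2 have 1 such region each, at 39.7, 84.6 and 44.9 kb, and IGF1R has none.

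FGF9 (gene ID 396717, chromosome 11, 1554648 to 1581938), the gene of a secreted FGF, also had a region in all 6 libraries, but at a distance and nearer to another gene. The region of 34 bp (1514259 to 1514292) lay 40.4 kb below the lower end of FGF9 and 13848 bp from an end of MICU2. Its percentiles were 98.78, 62.56 and 76.33 in day 15 replicates 1 to 3 and 96.17, 98.76 and 99.65 in day 12 replicates 1 to 3. The days overlapped in day 15 replicate 1 alone. Within 5 kb of its ends, FGF9 had 4, 1 and 0 summits in the day 15 libraries and 0, 0 and 2 in the day 12 libraries. The call of FGF9 on day 15 therefore rests on replicates 1 and 2, and the summit of replicate 2 (2.07 kb from an end) was at percentile 11.8.

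FGF7 (gene ID 397281, chromosome 1, 122215878 to 122278705) lies within FAM227B, so summits in its body are also inside that gene. Within 50 kb FGF7 had 10, 2 and 1 summits in the day 15 libraries and 0, 5 and 11 in the day 12 libraries. Its most widely shared region, 12.7 kb from the upper end (122265964 to 122266042), had a summit in 3 of 3 day 15 libraries and in day 12 replicates 2 and 3, at percentiles of 46.8 to 82.4. In day 12 replicate 1 the summit nearest to an end of FGF7 was 533 kb away. Within 5 kb, FGF7 had 1, 0 and 0 summits on day 15 and 0, 0 and 3 on day 12.

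IGF2 was the 1 gene of the 10 with no summit within 50 kb of an end in any library, and none inside the gene. IGF2 (gene ID 396916, chromosome 2, 1469183 to 1496417) is an imprinted gene expressed from the paternal copy in most tissues. The summit nearest to an end of it was 62.8, 147 and 129 kb away in day 15 replicates 1 to 3 and 146, 118 and 62.8 kb in day 12 replicates 1 to 3. Of all protein-coding genes, 6.76% had no summit within 50 kb in any library. INS, the insulin gene, and TH, the tyrosine hydroxylase gene, lie 425 and 3211 bp from IGF2 and share most of this window, and INS likewise had no summit within 50 kb.

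Among the receptor genes, IGF2R had summits in every library, of which 1 inside the gene and 1 beside its upper end stood out. IGF2R (gene ID 397214) spans chromosome 1, 7369485 to 7472480. Within 5 kb of its ends it had 3, 1 and 1 summits in the day 15 libraries and 1, 1 and 1 in the day 12 libraries. Within 50 kb it had 12, 4 and 3 summits on day 15 and 3, 7 and 9 on day 12. A region of 43 bp inside the gene (7454090 to 7454132), 18.3 kb from the upper end, had a summit in all 6 libraries. Its percentiles were 98.98, 86.61 and 93.1 in day 15 replicates 1 to 3 and 95.86, 96.62 and 97.07 in day 12 replicates 1 to 3, so the days overlapped. Of the 2701 regions shared by all 6 libraries, 13.1% had a higher mean percentile.

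Close to the upper end of IGF2R the libraries did not share 1 position. A region 100 bp beyond the end (7472580 to 7472783) had a summit in day 15 replicates 1, 2 and 3 and in day 12 replicate 1. The percentiles there were 53.3, 94.8 and 92.8 on day 15 and 12.2 in day 12 replicate 1. In day 12 replicates 2 and 3 the summits nearest to this end lay 1965 and 2013 bp beyond it, and day 15 replicate 1 had a further summit at 1990 bp. Thus 3 of 3 day 15 libraries and 1 of 3 day 12 libraries had a summit next to the end, while day 12 replicates 2 and 3 and day 15 replicate 1, all of set B, had one farther out. At the other end, a region 7.58 kb inside the gene (7377068 to 7377177) had a summit in 3 of 3 day 12 libraries and in day 15 replicate 1. Day 15 replicates 2 and 3 had summits of low rank nearby, 7199 and 7229 bp from that end, at percentiles 6.05 and 7.76.

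**Figure D4:**
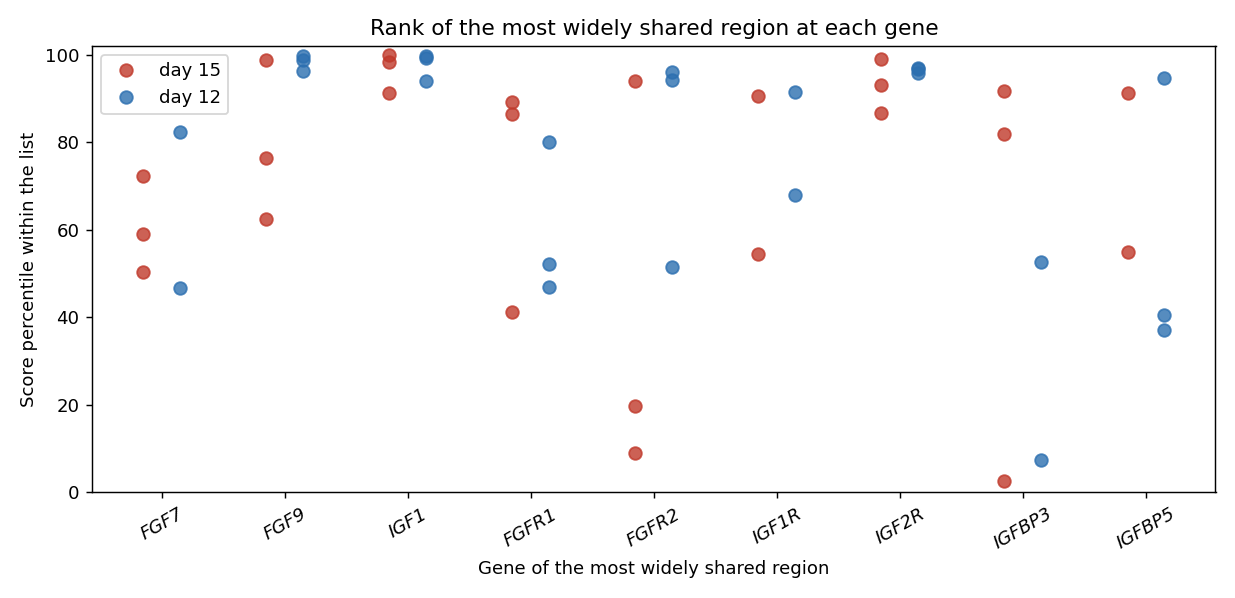
Score percentile within the list of the region with the most libraries at each gene (no point where a library has no summit there); day 15 is left of day 12. The regions of IGF1 and IGF2R lie at percentiles of at least 86.6 in all 6 libraries, while those of FGFR2 and IGFBP3 range widely.

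IGF1R, the longest of the 10 genes, had many summits in some libraries and none near its ends in others. IGF1R (gene ID 397350) spans chromosome 1, 137383623 to 137691038, 307416 bp. Within 50 kb of its ends it had 20, 6 and 0 summits in day 15 replicates 1 to 3 and 0, 11 and 13 in day 12 replicates 1 to 3. The libraries at 0 were day 15 replicate 3 and day 12 replicate 1, which have the shortest lists and both belong to set A. With the gene body included, day 15 replicate 3 had 2 summits and day 12 replicate 1 had 0. Of the 49 regions at IGF1R, 7 had a summit in 4 libraries and none in more. All 7 had it in the same libraries, day 15 replicates 1 and 2 and day 12 replicates 2 and 3. The one nearest to an end lay 3.07 kb below the gene (137380418 to 137380556), and the one with the highest mean percentile lay inside it (137539221 to 137539288). Within 5 kb, IGF1R had 6, 2 and 0 summits on day 15 and 0, 3 and 4 on day 12. The lower end of IGF1R overlaps PGPEP1L, so summits near that end can count for both.

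FGFR2 (gene ID 396762, chromosome 14, 131183095 to 131285001) had 3, 1 and 2 summits near its ends (5 kb) in the day 15 libraries and 0, 1 and 5 in the day 12 libraries. No other protein-coding gene lies within 50 kb of it. A region inside the gene (131227816 to 131228147) had a summit in all 6 libraries, but the summits were spread over 332 bp. Its percentiles were 93.98, 9.0 and 19.84 in day 15 replicates 1 to 3 and 51.59, 95.97 and 94.26 in day 12 replicates 1 to 3. The high values all came from set B and the lower ones from set A, on both days.

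FGFR1 (gene ID 100153248, chromosome 15, 48053895 to 48106634) had 1 summit within 5 kb of its ends, in day 12 replicate 3. Within 50 kb it had 5, 2 and 3 summits in the day 15 libraries and 1, 6 and 9 in the day 12 libraries. For 2 of these 26 summits (7.69%), FGFR1 had the nearest gene end. The region in all 6 libraries (48131958 to 48132099) lay 25.3 kb beyond FGFR1 and 330 bp from an end of LETM2. Percentiles there were 86.42, 89.08 and 41.25 on day 15 and 46.9, 52.08 and 80.01 on day 12. The 1 region at the 10 genes that separated the days completely lay in this stretch as well (48136373 to 48136553, 3944 bp from LETM2), with summits from 3 of 3 day 15 and from 0 of 3 day 12 libraries. Of the 159 regions at the 10 genes, this 1 is 0.629%, against 0.9% of all 99058 regions of the series for day 15, and none did so for day 12, against 0.139%. Its rank was low in day 15 replicate 3, at percentile 0.322, against 51.8 and 76.5 in day 15 replicates 1 and 2. The summit of day 15 replicate 3 scored 1.48, below 2.02, the lowest score in the list of day 12 replicate 1. It would not count with scores of at least 2.02.

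The binding protein genes had no region shared by all libraries, and IGFBP3 had fewer summits than the median gene, 9 within 50 kb over the 6 libraries against 16, while IGFBP5 had 17. IGFBP3 (gene ID 448812, chromosome 18, 50002921 to 50009425), which encodes the main IGF carrier of serum, had 3, 2 and 1 summits within 50 kb in the day 15 libraries and 0, 1 and 2 in the day 12 libraries. Its region 12.5 kb below the gene (49990322 to 49990454) had a summit in 3 of 3 day 15 libraries and in day 12 replicates 2 and 3. Percentiles were 91.75, 81.83 and 2.68 on day 15 and 7.36 and 52.62 in day 12 replicates 2 and 3. IGFBP1, a carrier secreted by decidual cells in the human, lies 9062 bp from IGFBP3 and shares this window. IGFBP5 (gene ID 397182, chromosome 15, 118861816 to 118877787), whose product binds extracellular matrix, had 8, 1 and 0 summits on day 15 and 1, 4 and 3 on day 12. Its most widely shared region (118812877 to 118812917) lay 48.9 kb away and nearer to IGFBP2, at 9175 bp, and was present in 2 of 3 day 15 libraries, against 3 of 3 for day 12.

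Regions at these genes were shared between libraries about as often as regions of the whole series. Of 159 regions within 50 kb of an end or inside the genes, 73 (45.9%) came from 1 library, against 50.5% of all 99058 regions. 5 regions had a summit in all 6 libraries, those at IGF1, IGF2R, FGF9, FGFR2 and FGFR1. Those of IGF1, IGF2R and FGF9 were among the 6557 highest-ranked summits of every library, which is the length of the shortest list. With summits counted over the whole gene and 5 kb on both sides, 6 of the 10 genes were bound on day 15 against 52.9% of all genes, and 5 on day 12 against 50.9%. FGFR2, IGF1 and IGF2R then had a summit in all 6 libraries, 3 of 10 against 18.2% of all genes. Those 3 genes are over 50 kb long, as are 6 of the 10. Among genes of at least 50 kb it was thus 3 of 6, against 25.8% of 5523 protein-coding genes. Among the shorter genes of the 10 it was 0, against 15.1% of all shorter genes.

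The days were compared by the number of summits within 50 kb per 10000 summits of the list, since the lists differ in length. IGF1 and IGFBP3 were the 2 genes whose libraries did not overlap, both higher on day 15, against 9.51% of all genes with day 15 higher. None of the 10 was higher on day 12 without overlap, against 3.74% of all genes. IGF1 had 1.71, 1.81 and 2.51 summits per 10000 in day 15 replicates 1 to 3 and 1.53, 1.5 and 1.56 in day 12 replicates 1 to 3. The means were 2.01 ± 0.434 on day 15 and 1.53 ± 0.0288 on day 12 (SD, n = 3 each), a difference of 0.483 (two-sided exact permutation p = 0.1, the smallest that 3 against 3 libraries can give, Benjamini-Hochberg adjusted over 19550 genes 0.755). The difference was 0.637 in set A and 0.18 in set B (exact permutation inside the sets, p = 0.333), 0.234 when day 15 replicate 3 was left out and 0.481 when day 12 replicate 1 was. The libraries overlapped when the window was 25 or 100 kb or took in the gene body, and with equal lists of 6557 summits (0.508). The difference was 0.0817 with scores of at least 5 and -0.926 with scores of at least 10.

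IGFBP3 had 0.428, 1.21 and 0.836 summits per 10000 on day 15 and 0, 0.300 and 0.346 on day 12. The means were 0.825 ± 0.391 on day 15 and 0.216 ± 0.188 on day 12 (SD, n = 3 each), a difference of 0.609 (two-sided exact permutation p = 0.1, adjusted 0.755). It was 1.02 in set A and 0.104 in set B (exact permutation inside the sets, p = 0.111, the smallest possible), 0.603 without day 15 replicate 3 and 0.501 without day 12 replicate 1. It was 0.313 with scores of at least 5 and 0.799 with scores of at least 10, and the days overlapped in both (exact permutation p = 0.4). With scores of at least 2.02, the lowest in day 12 replicate 1, it was 0.336 and the days overlapped (exact permutation p = 0.5), since the summit of day 15 replicate 3 scored 1.98. They also overlapped with equal lists, where the difference was 1.02. The raw numbers of summits at both genes overlapped between days. The same window gives IGFBP1 the same difference. Adjusted p was 0.755 or higher for all 10 genes, and 0 of 19550 genes could reach an unadjusted p under 0.05 in this design.

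For the other 8 genes the days overlapped. FGFR2 had a mean of 2.79 ± 0.705 on day 15 and 1.98 ± 0.557 on day 12 (SD, n = 3 each, exact permutation p = 0.2), and the direction differed between sets, 1.66 in set A and -0.205 in set B. IGF2R had 2.21 ± 0.437 on day 15 and 2.75 ± 1.61 on day 12 (exact permutation p = 0.9), where day 12 replicate 1 alone had 4.58. Without that library the difference of -0.533 became 0.382. IGF1R had 2.16 ± 1.91 on day 15 and 1.85 ± 1.69 on day 12 (exact permutation p = 0.8), with 0 in 1 library of each day. Day 15 was above day 12 for 5 of the 10 genes, against 53.3% of all genes, and the median difference was 0.0107 for the 10 and 0.0475 for all genes.

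**Figure D5:**
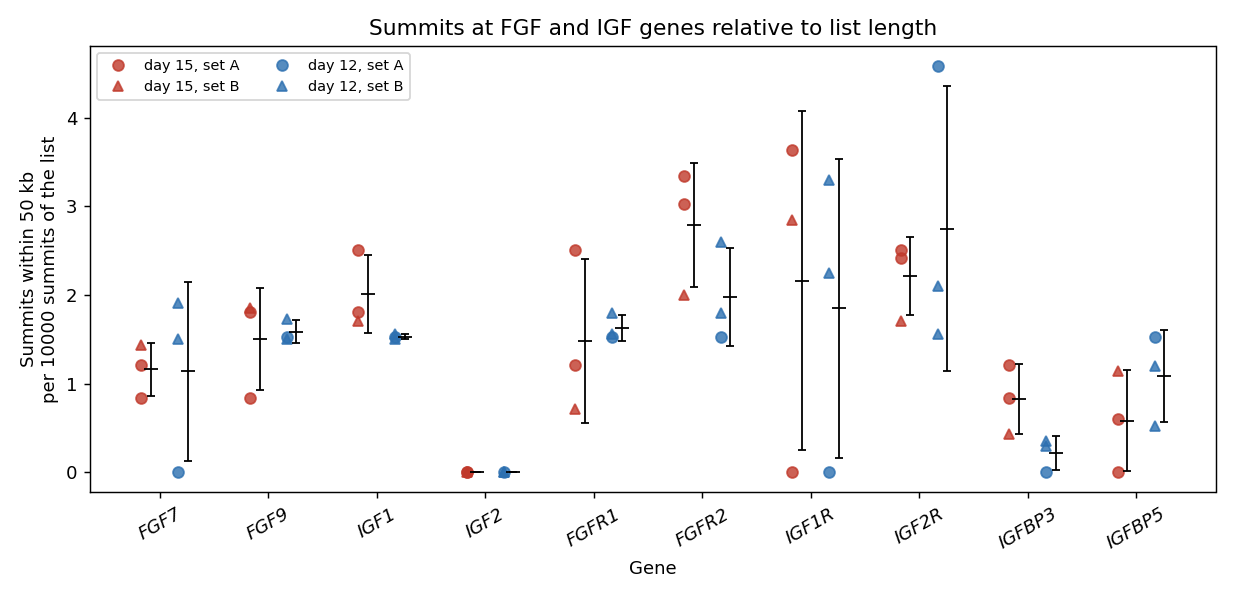
Summits within 50 kb of each gene per 10000 summits of the list; points are libraries (circles set A, triangles set B), and black bars show mean ± SD of 3 libraries, with day 15 left of day 12. Only at IGF1 and IGFBP3 do all day 15 points lie above all day 12 points.

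Other genes of both pathways were bound at shares near those of all genes. Of 32 further FGF pathway genes, 14 (43.8%) were bound within 5 kb on day 15 and 11 (34.4%) on day 12, against 46.3% and 38.1% of all genes, and 8 had no summit within 5 kb in any library. 5 of them (15.6%) had a summit in all 6 libraries, against 13.1%. These were KLB, the co-receptor of endocrine FGFs, SDC4, a heparan sulphate proteoglycan, SHC1, an adaptor of receptor tyrosine kinases, and SPRED2 and SPRY4, feedback inhibitors of the signal. SHC1 had 25 summits over the libraries, SPRY4 16, SPRED2 9, SDC4 8 and KLB 6. The 8 without a summit within 5 kb were the FGF genes FGF1, FGF10, FGF12, FGF13, FGF16, FGF18, FGF22 and FGF23, of which FGF12 and FGF13 encode intracellular proteins. FGF1, FGF18, FGF22 and FGF23 had a summit within 50 kb in 3 of 3 day 15 libraries, as did 62.0% of all genes. On day 12, FGF22 had one in 3 of 3 libraries, and FGF1, FGF18 and FGF23 in 2 of 3.

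Of 29 further IGF pathway genes found in the table, 13 (44.8%) were bound on day 15 and 9 (31.0%) on day 12. Without day 12 replicate 2 or 3 the day 12 numbers were 5 FGF and 4 IGF pathway genes, and the share of all genes fell as well, to 16.6% and 15.0%. 4 (13.8%) had a summit in all 6 libraries. FOXO3, a forkhead factor that insulin and IGF signalling keeps out of the nucleus, had 26 summits over the libraries. PDPK1, a kinase that activates AKT, had 17 and GRB10, an adaptor that restrains the insulin and IGF1 receptors, had 7. At none of these genes were the days fully separated (3 of 3 libraries against 0 of 3, within 5 kb), a pattern that 2.83% of all genes showed for day 15 and 0.0307% for day 12. By the 50 kb measure, 7 of 32 FGF (21.9%) and 5 of 29 IGF pathway genes (17.2%) were higher on day 15 without overlap, against 9.51% of all genes, and 0 of either list on day 12, against 3.74%. The pattern of the 10 genes themselves was common, since 2552 genes matched IGF2R in being present within 5 kb in every one of the 6 libraries and 5774 matched IGF1, IGF2 and IGFBP3 in having none. FGFR2 shared its presence pattern with 1958 genes, itself included, IGF1R with 718 and FGF9 with 469.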

How the data were processed

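Per the labels' protocols, endometrium was crosslinked with formaldehyde and its chromatin sonicated before size-selected libraries were made. The submitters' processing notes name the aligner Bowtie2 (2.3.5.1), SAMtools (1.9) and the peak caller MACS2 (2.1.2), and susScr11 as the build. How peaks were thresholded, whether input or duplicate removal entered, and whether samples were pooled is not given in the sources used here. Each summit deposited by the authors has a score, the −log10 of either a p-value or a q-value. The lowest score was 2.02 in the list of day 12 replicate 1, against 1.31 to 1.37 elsewhere. Because scores depend on depth, they served for ranks inside each list. The score filters put the same cutoff on all lists, so differences after a filter can depend on depth.

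Summits on the 18 autosomes, X and Y (196220 of 198341) were counted within 5 and 50 kb of either gene end, with positions counted from 1. The RefSeq gene table of Sscrofa11.1 that gave the gene ends has no strand, exons or sequence, so the planned start-site window and motif searches were not run. Numbers per 10000 summits were compared by two-sided exact permutation for every gene with Benjamini-Hochberg adjustment. Calculations used Python 3.11.15, numpy 2.4.6 and pandas 2.3.3 and were tested on simulated lists. The 10 genes and the pathway lists were chosen with earlier results of these data known. Named were all 10 genes, their most widely shared region (ties by mean percentile), regions of 1 day only, and up to 5 genes per pathway list in all 6 libraries. Further regions in at least 4 libraries and the FGF genes without a summit were chosen after their values were seen. Of the pathway lists, 1 entry (AKT1) did not match. Some of the genes that the rule names are not reported in the text.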

Additional observations from a re-analysis of the deposited data

How the results depend on the processing

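The number of the 10 genes bound within 5 kb (4 on day 15, 3 on day 12) and with a summit in all 6 libraries (1) moved with the settings. With scores of at least 5, 0 had a summit in all 6 libraries, and 9 FGF pathway genes were bound on day 15. With scores of at least 10, 2 of the 10 were bound on day 15, 0 had a summit within 5 kb and 2 within 50 kb in all 6 libraries, 374 genes of all were higher on day 12 without overlap, 6 FGF and 6 IGF pathway genes were bound on day 15 and 5 FGF genes on day 12. With equal lists of 6557 summits, 1 of the 10 was bound on day 12, 277 genes were higher on day 15 and 341 on day 12 without overlap (1859 and 731 with all summits), and 6 FGF pathway genes were bound on day 15 and 3 FGF and 3 IGF genes on day 12. Requiring all 3 libraries left 2 of the 10 on day 15 and 1 on day 12, and 5 FGF and 4 IGF pathway genes on day 12. Counting the gene body gave 5 of the 10 on day 12 and 3 in all 6 libraries, and 19 FGF and 17 IGF pathway genes on day 12. A window of 1 kb gave 2 of the 10 on day 15, 0 in all 6 libraries, and 5 FGF and 5 IGF pathway genes on day 12; 10 kb gave 15 IGF genes on day 12, and 25 kb gave 1 of the 10 in all 6 libraries in place of 5 within 50 kb. Numbers bound within 50 kb (9 and 9) and regions in all 6 libraries (4 to 6 when summits within 100 or 500 bp were joined) stayed within 1.5 times. The former fell to 6 and 6 with scores of at least 10 and with equal lists, and not to the same genes on both days. Shares of all genes within 50 kb were then 47.2% and 49.2% with scores of at least 10, and 48.0% and 38.1% with equal lists. When all 3 libraries were required, 7 were bound on day 15 and 6 on day 12, against 62.0% and 45.4% of all genes. Within 5 kb, the share of all genes bound on day 15 fell from 46.3% to 20.3% with scores of at least 10. It was 36.2% with scores of at least 5 and 36.7% with a window of 1 kb. On day 12 it fell from 38.1% to 9.68% with equal lists. The day 12 share was 21.2% with a window of 1 kb, 48.9% with 10 kb and 50.9% with the gene body counted. Requiring all 3 libraries gave 33.7% on day 15 and 14.8% on day 12. The lower numbers of the 10 and of the pathway genes bound in these settings thus came with lower shares of all genes. The higher numbers came with higher shares. Shares of all genes with a summit in all 6 libraries were not computed for the score filters or for windows of 1 and 25 kb. The counts of the 10 in all 6 libraries there cannot be compared with other genes.

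Leaving out 1 library gave 2 to 4 of the 10 bound on day 15, 1 to 3 on day 12 and 1 to 2 in all remaining libraries, 5 to 11 FGF and 4 to 9 IGF pathway genes on day 12, and 2233 to 4502 genes higher on day 15 and 1020 to 2355 on day 12 without overlap. Fewer libraries are easier to separate, so these last numbers cannot be lower than with all libraries. Of all genes, 34.5% to 46.3% were bound within 5 kb on day 15 and 15.0% to 38.1% on day 12. Within 50 kb, 7 of the 10 were bound on day 15 without its replicate 1 or 2 (62.1% and 64.8% of all genes). On day 12, 6 were bound within 50 kb without its replicate 2 or 3 (46.4% and 45.5% of all genes). Correlations between same-numbered libraries of the days were -0.471, -0.156 and -0.32. Each of these pairs crosses the processing sets, so they cannot tell whether the replicate numbers mark a pairing. Libraries of different days in the same set had correlations of 0.197 to 0.408. With the replicate block, exact p was 0.25, the smallest possible, for FGFR2, IGF1, IGFBP3 and IGFBP5, and 3337 genes were higher on day 15 and 1199 on day 12 in all 3 pairs. Without overlap within each processing set the numbers were 3085 and 2173. The rules of the pairs and of the sets are looser than no overlap among all libraries, so neither can give fewer genes.

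IGF2 had no summit and no direction. For the other 9 genes, 99 of 126 recomputed differences between days kept their direction and 27 reversed, the replicate block aside, which leaves the difference as it is. Reversed were FGFR2 (-0.208) and IGF1R (-0.0918) with scores of at least 5, and FGF7 (-0.712), FGFR1 (1.14), FGFR2 (-0.402), IGF1 (-0.926), IGF1R (-1.12) and IGF2R (0.598) with at least 10. With equal lists FGF7 (-0.508), FGF9 (0.508), FGFR1 (0.508), FGFR2 (-1.02) and IGF1R (-0.508) reversed, with 25 kb FGF9 (0.0606) and IGFBP5 (0.227), with 100 kb FGFR1 (0.0244) and IGF1R (-0.438), and within sets FGF9 (0.0183). Leaving out 1 library gave -0.546 to 0.406 for FGF7, -0.261 to 0.248 for FGF9, -0.667 to 0.23 for FGFR1, -0.618 to 1.39 for IGF1R and -1.13 to 0.382 for IGF2R. The cause was not tested. A score of at least 2.02, chosen after seeing the data, reversed no direction, but the days then overlapped at IGFBP3 (0.336). The window around a transcription start was not run. Depth is unknown, so a gene without a summit cannot be called unbound.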
